A study of Mus musculus with 8 samples.

Results

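The genes described here encode nuclear subunits of respiratory complexes I, II, III and IV, the enzymes of the inner mitochondrial membrane that pass electrons from NADH and succinate to oxygen. They were chosen by gene symbol alone: probe sets with a single symbol starting with Ndufa, Ndufb, Ndufc, Ndufs, Ndufv, Uqcr, Cox4i, Cox5, Cox6, Cox7 or Cox8, or equal to Sdha, Sdhb, Sdhc or Sdhd, without the Ndufaf assembly factors. This gave 138 of the 45037 probe sets on the array, for 65 of the 18193 genes named by single-symbol probe sets, with 78 probe sets for complex I, 9 for complex II, 16 for complex III and 35 for complex IV. RNA came from the palatal shelves of mouse embryos at embryonic day 14.5, the processes on each side of the oral cavity that grow together into the palate. The 4 R26Pax3/Pax3 samples (replicates 1, 3, 4 and 7) carried an allele that, by its name, places the transcription factor Pax3 at the Rosa26 locus, and the 4 wild type littermates (replicates 2, 6, 8 and 11) did not. All came from a cross of C57BL/6 and SV129 mice. The labels name no driver line, do not say which cells expressed the allele, and do not say whether a sample held 1 embryo or several, so all p-values here rest on sample-to-sample spread, which may be partly technical.

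Complex I (NADH dehydrogenase) and complex II (succinate dehydrogenase) feed electrons into the chain, complex III (cytochrome bc1) passes them to cytochrome c, and complex IV (cytochrome c oxidase) hands them to oxygen. Complexes I, III and IV also contain subunits encoded by mitochondrial DNA, while all subunits of complex II are nuclear. Nearly all tissues use the common subunits, and a few complex IV subunits have isoforms restricted to muscle, lung or testis. Transcription of the nuclear subunits is known to depend on the factors NRF1 and GABPA, also called NRF2.

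Promoter sequences give a feature of the group that the choice by symbol did not use, and 4 are shown because they hold, or lack, the letters bound by those factors. RefSeq windows on GRCm38.p6, running 250 bases before to 50 after the gene start, were found for 52 of the 65 genes (54 windows). The letters GCGCA and GCGC with any 1 base between them, as read by NRF1, were present on either strand in 10 of 54 windows (18.5%), against 4.6% of all 32851 windows. CCGGAAG, an ETS site of the kind GABPA binds, was present in 11 windows (20.4%, against 8.86% of all), and AAGATGGC, as read by YY1, in 6 (11.1%, against 2.75%). The GC box GGGCGG (44.4% against 35.7%) and the TATA box TATAAA (13.0% against 13.6%) were nearer to all windows. These 5 motifs are among 10 that were searched, and they were picked after the shares were seen. The last 3 letters of CCGGAAG are the first 3 of AAGATGGC, so those matches can overlap. The 150 bases before the start are printed 5′ to 3′ for a gene of each complex. Capitals mark the NRF1 letters or CCGGAAG on either strand.
Ndufa8, chr2:36049339-36049488, minus strand: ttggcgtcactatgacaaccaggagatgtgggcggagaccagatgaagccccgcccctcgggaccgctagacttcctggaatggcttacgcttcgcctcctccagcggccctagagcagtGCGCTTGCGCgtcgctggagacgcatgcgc
Sdhd, chr9:50603850-50603999, minus strand: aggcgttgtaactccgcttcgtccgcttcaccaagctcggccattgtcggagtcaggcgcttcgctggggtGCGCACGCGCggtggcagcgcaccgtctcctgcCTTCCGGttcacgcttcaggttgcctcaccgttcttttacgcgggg
Uqcr10, chr11:4704345-4704494, minus strand: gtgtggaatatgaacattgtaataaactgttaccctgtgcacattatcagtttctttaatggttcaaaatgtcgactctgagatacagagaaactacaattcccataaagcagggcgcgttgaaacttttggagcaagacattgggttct
Cox6a1, chr5:115348959-115349108, minus strand: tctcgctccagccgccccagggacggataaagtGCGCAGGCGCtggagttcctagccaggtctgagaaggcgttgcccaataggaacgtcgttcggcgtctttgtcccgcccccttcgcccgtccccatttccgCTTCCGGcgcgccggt
Ndufa8 encodes an accessory subunit of complex I, Sdhd a membrane anchor of complex II, and Cox6a1 the widespread form of a complex IV subunit. Uqcr10, a small subunit of complex III on which the results below turn, held neither motif in its window. A match is a run of letters and not a measured site. The median log2 difference between genotypes was -0.03 over the 8 measured genes with the NRF1 letters in a window and -0.02 over the 40 with a window without it.

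Values are MAS5 signals, and their trimmed mean was 150 on every array, so a change shared by most genes would not be seen. The median of an array lay between 43.5 and 44.9. A signal below it is treated here as too low to tell from background, a chosen limit, since detection calls did not enter. The filter on low signals was set lower, at a mean of 25.4. Some tested probe sets, such as 1430149_at of Ndufa3, therefore lay below the median on every array. The targeted gene checked the labels: the brightest Pax3 probe set read 532 to 722 in R26Pax3/Pax3 arrays, against 142 to 176 in wild type arrays. The dimmest of its 3 probe sets averaged 82.5 in R26Pax3/Pax3 and 103 in wild type, a log2 difference of -0.29 (limma adjusted p = 1). Markers of the tissue were present, with all 11 listed genes of palatal mesenchyme on the array past the filter on low signals, and these summed to 8778 to 9531 in R26Pax3/Pax3 arrays and to 8703 to 9656 in wild type arrays. Each marker gene is taken here by its brightest probe set. Prrx1, which averaged 3008 in both genotypes, made up much of the mesenchyme sum. By gene, 6 had a higher and 5 a lower mean in R26Pax3/Pax3, from -0.21 for Twist1 to 0.45 for Msx1 on the log2 scale, with a median of 0.00. The sums of other cell types varied more: the 21 of 24 skeletal muscle genes past the filter summed to 1120 to 7786 in R26Pax3/Pax3 arrays and to 3311 to 8591 in wild type arrays. The 10 neuronal genes summed to 1292 to 2122 in R26Pax3/Pax3 arrays and to 598 to 2304 in wild type arrays. All 10 had a higher mean in R26Pax3/Pax3, with a median difference of 0.77 on the log2 scale. By array, the neuronal sum was 1771, 2122, 2120 and 1292 in R26Pax3/Pax3 replicates 1, 3, 4 and 7. It was 598, 2304, 1310 and 642 in wild type replicates 2, 6, 8 and 11. Wild type replicates 2 and 11 were thus the lowest arrays, while wild type replicate 6 was the highest of all. The 13 epithelial genes summed to 8062 to 10904 in R26Pax3/Pax3 arrays and to 7432 to 9130 in wild type arrays, and 10 had a higher mean, with a median of 0.23. Among them Krt17, a keratin, had the largest difference. It read 476 to 667 in R26Pax3/Pax3 arrays and 157 to 354 in wild type arrays, without overlap. Of all probe sets tested, 2.73% had no overlap. The 3 epithelial genes with a lower mean were Krt18 (-0.06), Krt8 (-0.03) and Grhl2 (-0.03). None of these markers was called, and their part in the respiratory chain values was not tested. In bulk tissue, fewer cells of a type and less RNA per cell cannot be told apart.

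Levels of respiratory chain transcripts did not pass the test of genotype on any probe set. Of the 138 probe sets, 121 (60 genes) had a mean over the 8 arrays above the 40th percentile and were tested, and 0 were called at a limma adjusted p under 0.05, against 0.0148% (4) of all 27021 probe sets tested, or 0.0074% in each direction. Over the array, the 2 called higher were both of Pax3, the targeted gene (1.83 and 1.96 on the log2 scale). The other 17 of the 138 probe sets lay below the array median on all 8 arrays, and they were the only probe sets of 5 genes, most of them tissue-restricted forms. Of the 121, 53 had a higher and 68 a lower mean in R26Pax3/Pax3, with a median log2 difference of -0.01 on the log2(signal + 16) scale, against 0.00 over all probe sets tested. At an unadjusted p under 0.05 there were 3 (2.48%), against 4.86% of all. The arrays of the genotypes did not overlap for 3 probe sets (2.48%, against 2.73% of all), all 3 lower in R26Pax3/Pax3, which 1.34% of all were, while 1.39% of all were higher. A p that misses the threshold does not show equal levels, so the intervals matter: for 109 of 121 (90.1%) the 95% interval of the difference lay within 0.5 on the log2 scale of 0, against 71.7% of all. Among probe sets with a mean signal of 500 or more these shares were 97.9% and 93.7%.

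**Figure D1:**
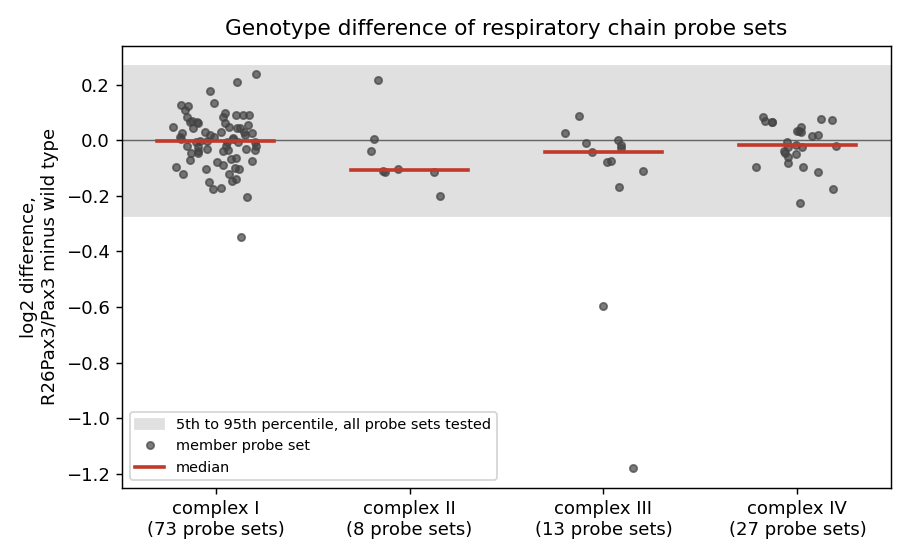
Log2 difference (R26Pax3/Pax3 minus wild type, y axis) of each of the 121 tested probe sets, by complex (x axis); red lines are medians and the grey band spans the 5th to 95th percentile of all 27021 probe sets. Nearly all points lie in the band. The 3 below it are 2 probe sets of Uqcr10 at -1.18 and -0.60 and 1 of Ndufa12 at -0.35. Over all probe sets with a mean signal of 500 or more, the same percentiles were -0.17 and 0.17.

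In complex I, 36 of 73 tested probe sets had a higher and 37 a lower mean, with a median log2 difference of 0.00. The core subunits, most of which carry the flavin or iron-sulfur clusters, were tested on 16 probe sets of 6 genes (10 higher, 6 lower), with differences from -0.07 to 0.24. Ndufs1, the largest subunit of the complex, read 742, 728, 744 and 775 in R26Pax3/Pax3 replicates 1, 3, 4 and 7. It read 755, 750, 722 and 749 in wild type replicates 2, 6, 8 and 11. The groups overlapped throughout, with a difference of 0.01 (SE 0.0681, 95% interval -0.14 to 0.16). Ndufs3, an iron-sulfur fraction subunit, differed by -0.03 (SE 0.0693) and the brightest probe set of the flavoprotein Ndufv1 by -0.03 (SE 0.0805). The accessory subunits, on 57 probe sets of 29 genes including Ndufa4 and Ndufa4l2, lay between -0.35 and 0.18 (26 higher, 31 lower). Among them Ndufs4, a late-assembled subunit whose loss causes Leigh-like disease in mice, was the 1 probe set with an unadjusted p under 0.05: it averaged 473 ± 43.8 in R26Pax3/Pax3 and 545 ± 22 in wild type (n = 4 each, SD), a difference of -0.20 (SE 0.0854, limma adjusted p = 0.995). One array decided the overlap of Ndufs4: R26Pax3/Pax3 replicate 1 read 535, above the wild type low of 525, while the other three read 434 to 466. The other 2 tested probe sets of Ndufs4 differed by -0.01 (SE 0.137) and -0.17 (SE 0.141).

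In complex II, 6 of 8 tested probe sets had a lower and 2 a higher mean, with a median of -0.11 and 0 past an unadjusted p of 0.05. Sdha, the flavoprotein that oxidises succinate, averaged 1303 ± 66.9 in R26Pax3/Pax3 and 1418 ± 164 in wild type on its brightest probe set (n = 4 each, SD), a difference of -0.11 (SE 0.0891, limma adjusted p = 0.9997). Sdhb, the iron-sulfur subunit, read 1537, 1536, 1647 and 1651 in R26Pax3/Pax3 replicates 1, 3, 4 and 7 and 1556, 1702, 1569 and 1519 in wild type replicates 2, 6, 8 and 11. These ranges overlapped, with a difference of 0.01 (SE 0.0683). The membrane anchor Sdhc, which with Sdhd binds ubiquinone, differed by -0.11 on both of its probe sets (SE 0.0957 and 0.103). The median of complex II was -0.04 without wild type replicate 6. It was also -0.04 when each gene was taken by the mean over its probe sets, where complex III was at -0.07, so no order of the complexes holds. Without R26Pax3/Pax3 replicate 1, complex II was at -0.06 and complex III at -0.08.

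In complex III, 10 of 13 tested probe sets had a lower mean in R26Pax3/Pax3, with a median of -0.04. Uqcrfs1, the Rieske iron-sulfur protein, read 964, 981, 922 and 829 in R26Pax3/Pax3 replicates 1, 3, 4 and 7 and 1082, 947, 1056 and 1073 in wild type replicates 2, 6, 8 and 11. Wild type replicate 6 lay below R26Pax3/Pax3 replicates 1 and 3, so the groups overlapped, with a difference of -0.17 (SE 0.0806, limma adjusted p = 0.9997). The core proteins Uqcrc1 and Uqcrc2, which make up the matrix arm, differed by -0.08 (SE 0.0742) and, on the brightest probe set, -0.03 (SE 0.0667). Among the small subunits, Uqcrb was at -0.02 and 0.09, Uqcrh, the hinge protein, at -0.04 and -0.08, Uqcrq at 0.00 and Uqcr11 at -0.11.

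Uqcr10, a single-pass membrane subunit, gave different values on its 3 probe sets. On the brightest (1424364_a_at) the signal was 735, 585, 627 and 628 in R26Pax3/Pax3 replicates 1, 3, 4 and 7 and 703, 668, 634 and 589 in wild type replicates 2, 6, 8 and 11. Those ranges overlapped, with a difference of -0.01 (SE 0.0912, 95% interval -0.21 to 0.19). On 1434341_x_at the signal was 123, 94.1, 115 and 79.0 in R26Pax3/Pax3 replicates 1, 3, 4 and 7, against 161, 182, 147 and 159 in wild type replicates 2, 6, 8 and 11. Every R26Pax3/Pax3 array lay below every wild type array there, with a difference of -0.60 (SE 0.134, limma adjusted p = 0.497). On 1434340_at the signal was 32.7, 7.2, 32.5 and 34.1 in R26Pax3/Pax3 replicates 1, 3, 4 and 7, against 81.9, 70.8, 74.5 and 77.4 in wild type replicates 2, 6, 8 and 11. The groups again lay apart, but the 4 R26Pax3/Pax3 values were below the medians of their arrays, so the difference of -1.18 (SE 0.229, limma adjusted p = 0.282) has no firm size, and it was -0.64 with a pseudocount of 64 and -1.69 with 1. The array annotation lists the same source transcript for both of these probe sets and another for the brightest. Within the first and the last 4 arrays deposited, each with 2 of each genotype, the differences were -0.54 and -0.66 on 1434341_x_at and -1.40 and -0.96 on 1434340_at.

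**Figure D2:**
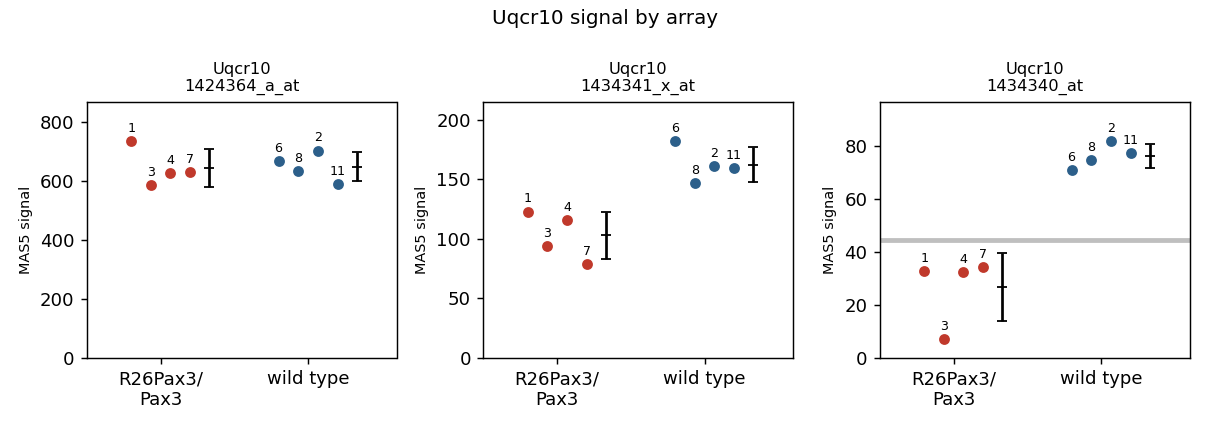
MAS5 signal (y axis, from 0) of the 3 probe sets of Uqcr10 in each array, numbered by replicate, R26Pax3/Pax3 in red and wild type in blue, with mean and SD beside each group; the grey line is the range of array medians. The groups overlap on the left probe set and lie apart on the other two, where R26Pax3/Pax3 reads at most 123 and 34.1.

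Whether a second probe set of a gene gave another genotype difference than its brightest was tested for all genes of the array at once. For the respiratory chain there were 61 such within-gene differences in 35 genes, and 0 were called at a limma adjusted p under 0.05, against 0.0192% (2) of 10439 over the array, of which Pax3 was 1 (-2.12 for its dimmest probe set). By gene, 0 of 35 had a called difference, against 0.0336% (2) of 5961. Their median size was 0.0766 on the log2 scale, against 0.103 over the array, and 10 of 61 (16.4%) reached 0.2, against 22.6%. These values were not matched for signal. Of the 121 tested member probe sets, 94 had a mean signal of 500 or more, against 4353 of all 27021. The 2 member differences with an unadjusted p under 0.05 were both of Uqcr10 (3.28%, against 3.56% over the array): -1.17 (SE 0.208, limma adjusted p = 0.309) for 1434340_at and -0.59 (SE 0.139, limma adjusted p = 0.9998) for 1434341_x_at, each set against the brightest. Both had no overlap between genotypes, as did 1.84% of the array's differences.

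Ndufa12, an accessory subunit of complex I, came next, and on its brightest probe set the wider spread lay inside the R26Pax3/Pax3 group. On its brightest probe set (1455806_x_at) the signal was 1033, 957, 2032 and 1993 in R26Pax3/Pax3 replicates 1, 3, 4 and 7, against 2001, 1748, 1606 and 1890.4 in wild type replicates 2, 6, 8 and 11. R26Pax3/Pax3 replicates 1 and 3 thus lay below the other six arrays, and the difference of -0.35 (SE 0.221, limma adjusted p = 0.9997) came to -0.74 among the first 4 arrays deposited and 0.05 among the last 4. The other 3 probe sets of Ndufa12 differed by -0.04, 0.13 and 0.18. On 1418814_s_at, R26Pax3/Pax3 replicates 1 and 3, at 1312 and 1111, were above replicates 4 and 7, at 1014 and 908. Wild type replicates 6 and 8, at 1053 and 1130, were likewise above wild type replicates 2 and 11, at 921 and 856. On the brightest probe set, wild type replicates 6 and 8 were below 2 and 11. Replicates 1, 3, 6 and 8 were the first 4 deposited, so both genotypes divided by order of deposit. Sdhd split in the wild type group: its dimmer probe set (1437489_x_at) read 79.4, 115, 124 and 117 in R26Pax3/Pax3 replicates 1, 3, 4 and 7, against 54.4, 55.0, 160 and 129 in wild type replicates 2, 6, 8 and 11. The groups overlapped, and the difference of 0.22 (SE 0.279) stood against -0.20 (SE 0.103) on the brighter probe set, where R26Pax3/Pax3 averaged 832 ± 89.0 and wild type 960.2 ± 121 (n = 4 each, SD). With 1 array left out at a time, the value on the dimmer probe set ranged from 0.02 to 0.46. Ndufv2, a core iron-sulfur subunit, differed by 0.24 (SE 0.114) on 1438159_x_at, 0.06 (SE 0.0878) on a second and -0.02 (SE 0.0668) on the brightest probe set. Probe sets whose name ends in _x_at or _s_at can read more than 1 transcript, and 34 of the 121 tested were of these kinds, so these values are uncertain where near-identical copies of a gene exist.

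**Figure D3:**
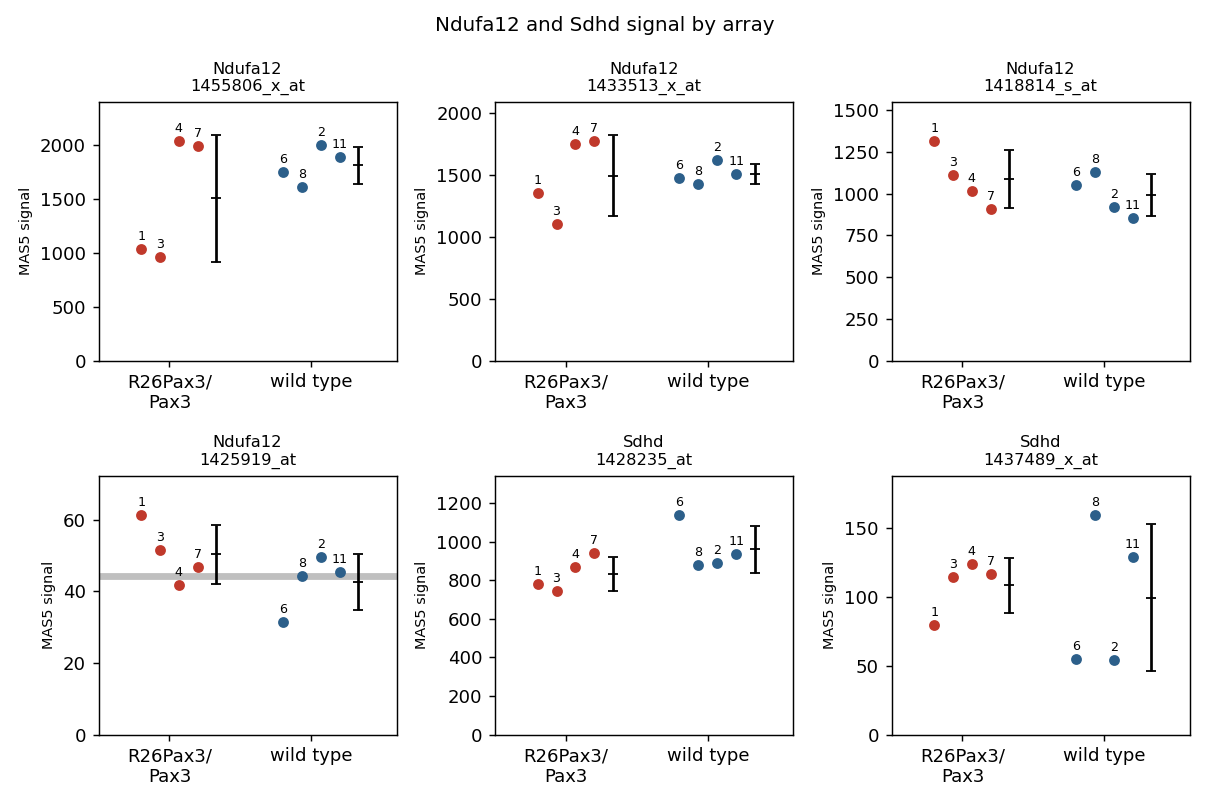
MAS5 signal (y axis, from 0) of the probe sets of Ndufa12 and Sdhd in each array, numbered by replicate, R26Pax3/Pax3 in red and wild type in blue, with mean and SD. R26Pax3/Pax3 replicates 1 and 3 stand apart on the first Ndufa12 probe set (1033 and 957), and wild type replicates 2 and 6 on the second of Sdhd (54.4 and 55.0).

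In complex IV, 12 of 27 tested probe sets had a higher and 15 a lower mean, with a median of -0.02. The subunits used in most tissues, on 24 probe sets of 10 genes, divided evenly (12 higher, 12 lower) between -0.17 and 0.08. Cox4i1, the regulatory subunit that binds ATP, read 4375, 3624, 3720 and 4028 in R26Pax3/Pax3 replicates 1, 3, 4 and 7 and 4034, 4011, 3757 and 3730 in wild type replicates 2, 6, 8 and 11. The groups overlapped, with a difference of 0.02 (SE 0.0734, 95% interval -0.14 to 0.18). Cox5b, a peripheral zinc-binding subunit, was tested on 5 probe sets, which lay between -0.05 and 0.08. Cox6a1 was at -0.06 and -0.10, Cox6b1, which faces the intermembrane space, at 0.06 and 0.02, Cox7a2 at -0.02 and -0.05, and Cox8a at -0.09 and -0.11. Cox7a2l, a factor of supercomplexes of complexes III and IV, had the most positive difference, 0.08 (SE 0.0800) on 1 of its 3 probe sets. Cox7c was the 1 gene of the complex whose groups lay apart on a probe set: 1459884_at read 49.0, 53.0, 51.4 and 49.1 in R26Pax3/Pax3 replicates 1, 3, 4 and 7, against 54.1, 59.6, 63.4 and 59.9 in wild type replicates 2, 6, 8 and 11. These signals were close to the array medians, the difference was -0.17 (SE 0.118, limma adjusted p = 0.9997), and the brighter probe set of Cox7c overlapped, with 0.03 (SE 0.166).

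Most isoforms restricted to certain tissues were dim in the shelves. Of 7 such genes of complex IV, 3 had a probe set past the filter, and the probe sets of Cox4i2 (lung), Cox7a1 and Cox8b (heart and skeletal muscle) and Cox7b2 (testis) lay below the medians of all 8 arrays. Cox8b read 2.4, 3.2, 12.3 and 2.4 in R26Pax3/Pax3 replicates 1, 3, 4 and 7 and 27.9, 1.0, 12.6 and 11.5 in wild type replicates 2, 6, 8 and 11. Cox6a2, the heart and skeletal muscle form, read 39.0, 45, 52.7 and 29.8 in R26Pax3/Pax3 replicates 1, 3, 4 and 7 and 50.1, 43.6, 49.2 and 60.9 in wild type replicates 2, 6, 8 and 11. These values lie around the array medians, the groups overlapped, and the difference was -0.23 (SE 0.158, limma adjusted p = 0.9997). All 21 skeletal muscle genes past the filter had a lower mean in R26Pax3/Pax3, with 0 called, and their summed signal was 3629, 6357, 7786 and 1120 in the same R26Pax3/Pax3 arrays and 7178, 3311, 6138 and 8591 in the same wild type arrays. The lowest value of both Cox6a2 and the muscle sum was in R26Pax3/Pax3 replicate 7, and the highest of both in wild type replicate 11. The muscle sums of R26Pax3/Pax3 replicates 1, 3 and 4 lay within the wild type range of 3311 to 8591, and only replicate 7 fell below it. The shared direction of the muscle genes thus leans on 1 array. The part of muscle in the Cox6a2 values was not tested. Cox6b2, the testis form, averaged 182 ± 30.5 in R26Pax3/Pax3 and 195 ± 38.4 in wild type (n = 4 each, SD), a difference of -0.08 (SE 0.153). Cox8c read 76.4 to 109 in R26Pax3/Pax3 arrays and 79.5 to 97.9 in wild type arrays on 1455167_at, a difference of -0.02 (SE 0.131). Like Cox6b2, it thus lay above the array medians there, while its other probe set did not pass the filter. Ndufa4, now placed in complex IV by biochemists though named for complex I, differed by -0.08 (SE 0.0704). Its relative Ndufa4l2, which hypoxia induces, read 257, 111, 171 and 231 in R26Pax3/Pax3 replicates 1, 3, 4 and 7 and 193, 203, 125 and 219 in wild type replicates 2, 6, 8 and 11. The spread of Ndufa4l2 within each genotype exceeded the difference of 0.02 between them (SE 0.228, 95% interval -0.48 to 0.52).

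One array stood apart for the respiratory chain. R26Pax3/Pax3 replicate 3 was the lowest of its group on 74 of the 121 tested probe sets (61.2%), against 24.9% of all probe sets tested and 31.0% of those with a mean signal of 500 or more. The 121 probe sets lay a median of -0.10 from their mean over the 8 arrays on it, against 0.00 to 0.04 on the other R26Pax3/Pax3 arrays and -0.02 to 0.05 on the wild type arrays. The mean log2 level over the 73 probe sets of complex I was 9.54, 9.41, 9.58 and 9.58 in R26Pax3/Pax3 replicates 1, 3, 4 and 7 and 9.53, 9.57, 9.51 and 9.53 in wild type replicates 2, 6, 8 and 11. Without R26Pax3/Pax3 replicate 3, the medians were 0.04 in complex I, -0.14 in complex II, 0.00 in complex III and 0.03 in complex IV. The complex III mean came to 9.72 ± 0.106 in R26Pax3/Pax3 arrays and 9.89 ± 0.0287 in wild type arrays (n = 4 each, SD), a difference of -0.17, and without the probe sets of Uqcr10 it was 10.48 ± 0.0765 in R26Pax3/Pax3 arrays and 10.52 ± 0.0241 in wild type arrays, a difference of -0.04. By order of deposit, which no label ties to a batch, 13 of 121 probe sets (10.7%) differed by over 0.2 between the last and the first 4 arrays, against 22.9% of all, and 8 of the 13 by over 0.3. These 8 were 3 probe sets of Ndufa12 (0.61, 0.31 and -0.31) and 1 each of Ndufs5 (0.48), Ndufv1 (0.33), Uqcr10 (0.33 on 1434340_at), Ndufb2 (0.33) and Cox7c (-0.33 on 1459885_s_at). Of the 121 probe sets, 94 had a mean signal of 500 or more. The share of 22.9% was not taken at that signal, so the lower share of the members may go with their brightness.

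**Figure D4:**
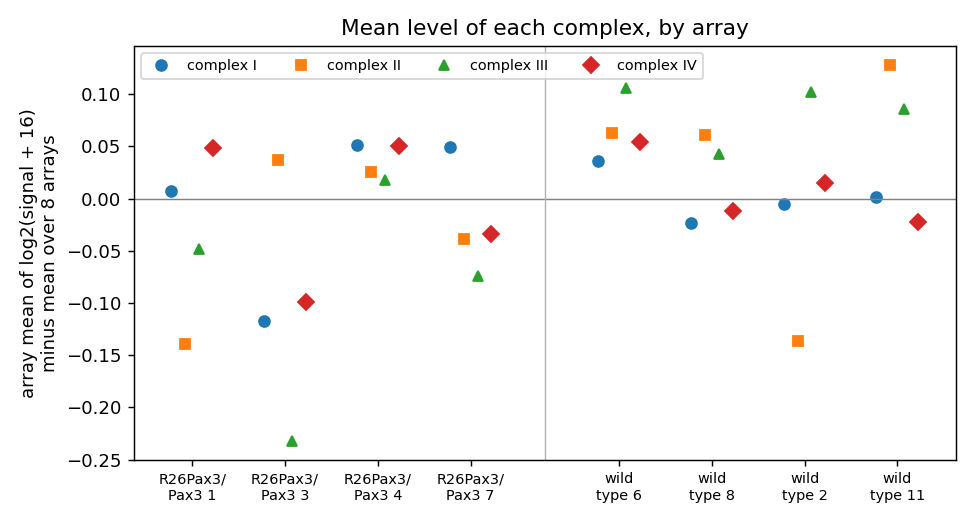
Mean of log2(signal + 16) over the tested probe sets of each complex, minus its mean over the 8 arrays (y axis), for each array (x axis). R26Pax3/Pax3 replicate 3 has the lowest mean of complexes I, III and IV, for complex I 9.41 against 9.51 to 9.58 in the other seven arrays.

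Partner genes of the same pathway, from lists of known members, gave 0 calls in either direction. Calls were counted over all their tested probe sets. These were 33 for the ATP synthase, 61 for assembly factors, 34 for regulators of biogenesis and 26 for the citric acid cycle. The other counts and values below take only the brightest probe set of each gene, and further probe sets may differ. Of all 27021 probe sets tested, 0.0148% (4) were called, so 0 calls say little about these lists. For the ATP synthase, the enzyme that the proton gradient drives, 12 of 18 genes had a higher and 6 a lower mean, with a median of 0.03. Atp5md, a small subunit of the synthase dimer, averaged 728 ± 107 in R26Pax3/Pax3 and 612 ± 90.0 in wild type (n = 4 each, SD), a difference of 0.25 (SE 0.122), and Atpif1, its inhibitor, differed by 0.16 (SE 0.0979). Of 41 assembly factors, 15 had a higher and 26 a lower mean, with a median of -0.03. Tmem126b, a complex I assembly factor, differed by 0.30 (SE 0.134), and Sco2, a copper chaperone of complex IV, by -0.30 (SE 0.157). Of 17 regulators of mitochondrial biogenesis, 11 were higher and 6 lower in mean, with Tfb1m, a methyltransferase of mitochondrial ribosomal RNA, at 207 ± 27.9 in R26Pax3/Pax3 and 152 ± 30.0 in wild type (n = 4 each, SD), a difference of 0.42 (SE 0.142, limma adjusted p = 0.918). The helicase Twnk differed by -0.22 (SE 0.106). Of 12 citric acid cycle genes, 5 were higher and 7 lower in mean, with a median of -0.02, and the 2 with the smallest p were subunits of succinyl-CoA ligase, Sucla2 at -0.10 (SE 0.0851) and Suclg1 at -0.08 (SE 0.0883). The mobile carrier Cycs, cytochrome c, was at -0.01 (SE 0.132), and Cyc1, the cytochrome c1 of complex III that the choice by symbol left out, at 0.10 (SE 0.0855).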

How the data were processed

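Affymetrix arrays were hybridised with RNA from 4 R26Pax3/Pax3 and 4 wild type samples. The deposited values, computed by the authors with MAS5 (no version given), are intensities on a linear scale, per the submitters' processing notes. Detection calls and scanner output did not enter. Gene symbols came from the array annotation, and 10 probe sets with a member's symbol among several were left out. After removal of 64 control probe sets, signals became log2(signal + 16), only probe sets whose mean signal exceeded the 40th percentile (25.4) were kept, and these 27021 were compared in limma 3.58.1 (R 4.3.3; lmFit, eBayes with an intensity trend, no covariates), with Benjamini-Hochberg adjustment over all of them. Differences are R26Pax3/Pax3 minus wild type. For marker and partner lists, sums, directions, medians and values of single genes use the brightest tested probe set of each gene. Within-gene differences (each further probe set minus the brightest, per array) were fitted for all genes at once, without the trend. Both fits were run on simulated data with independent noise. Recovery was required only of the probe set fit, and only for differences larger than those described here for members. The number of arrays limits the precision.

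Sample titles gave the genotypes. Members, lists and tests were chosen with earlier results of these data known. Named were called members, those whose groups did not overlap, Uqcr10, the extremes per complex, the Sdh genes, listed isoform pairs, the 4 genes with the largest within-gene differences and the 2 smallest p of each partner list; other members illustrate roles. Alternatives were the pseudocount, filter, quantile normalization, order of deposit as a block, no trend, gene-level values and leaving out each array.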

Additional observations from a re-analysis of the deposited data

Results flagged for a closer look

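Of 90 sets of 4 arrays checked, 5 had 1 array whose gap to the nearest other exceeded Dixon's 95% critical value as a share of the range, and chance gives about 1 in 20. On 1 probe set each, R26Pax3/Pax3 replicate 3 read 7.2 for Uqcr10 where the others of its genotype read 32.5 to 34.1, and R26Pax3/Pax3 replicate 1 read 929 for Ndufv2 where they read 1218 to 1247. On a dim probe set of Cox6a2, R26Pax3/Pax3 replicate 4 read 23.7 (others 3.0 to 5.5) and wild type replicate 2 read 24.4 (others 3.8 to 6.3). For Cox8b, R26Pax3/Pax3 replicate 4 read 12.3 (others 2.4 to 3.2). The values of Uqcr10 on this probe set in R26Pax3/Pax3, and all values of the Cox6a2 and Cox8b probe sets, lie below the array medians and are treated as too low to tell from background.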

How the results depend on the processing

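The count of 0 respiratory chain probe sets called, and of 0 within-gene differences called among them, held under every alternative run. Over all probe sets, 4 were called in the main setting and under each change of pseudocount, filter, normalization, block or trend, and 4 to 9 with 1 array left out, with 9 without R26Pax3/Pax3 replicate 3. The median log2 differences of the complexes were also taken with 1 array left out. They ranged from -0.01 to 0.04 in complex I, -0.14 to -0.04 in complex II, -0.08 to 0.00 in complex III and -0.04 to 0.03 in complex IV. The signs for complexes I and IV are thus not firm. Leaving out R26Pax3/Pax3 replicate 3 moved the medians of complexes I, III and IV by more than the SD of their array means in wild type (0.0248, 0.0287 and 0.0341). The moves were smaller than the SDs in R26Pax3/Pax3, which include replicate 3 (0.0793, 0.106 and 0.0722). The median of complex III without Uqcr10, added after the data were seen, was -0.04. On 1434341_x_at the Uqcr10 difference ranged from -0.68 to -0.50 with 1 array left out (limma adjusted p 0.289 to 0.895) and from -0.67 to -0.45 under the other alternatives (0.394 to 0.661). On 1434340_at the ranges were -1.28 to -0.91 (0.0707 to 0.706) and -1.69 to -0.64 (0.129 to 0.596). No paired analysis was possible because the genotypes share no replicate numbers. Probe sets near the array medians carry little information.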
